A study of Mus musculus with 12 samples.

Results

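The vascular endothelial growth factor (VEGF) and angiopoietin genes were followed here as one signaling system in the hearts of mice that lost Sdhaf4, the assembly factor of succinate dehydrogenase, in muscle. Its 10 genes were chosen by name, with earlier results of these data known. They are the ligands Vegfa, Vegfb, Vegfc and Pgf, the VEGF receptor genes Flt1, Kdr and Flt4, the angiopoietins Angpt1 and Angpt2, and the angiopoietin receptor gene Tek, out of 43686 genes and loci in the deposited table. The table's gene name column held 9 of them, and Vegfa was found through the table's pathway annotation because its name cell held a dash. RNA of the ventricular wall was sequenced in 6 WT and 6 KO libraries after mRNA capture on poly-T beads. WT mice carried Sdhaf4 fl/fl without Cre, and KO mice carried Sdhaf4 fl/fl together with the Ckmm-Cre transgene. The muscle creatine kinase promoter drives this Cre in cardiac and skeletal muscle, so the deletion was aimed at muscle cells and not at the endothelium. The labels call the mutants Sdhaf4-/-, give the strain as C57BL/6 and the age as postnatal month 2 for both groups. The study's main text gives a younger age, while its reporting summary names male mice for omics work, some of an age close to that label. The labels number the libraries but do not state that each came from a different animal, so p-values measure the spread between these libraries.

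VEGF-A is a secreted protein that binds the endothelial tyrosine kinase receptors VEGFR1 (Flt1) and VEGFR2 (Kdr), VEGF-B and placental growth factor bind VEGFR1, and VEGF-C binds VEGFR3 (Flt4), the receptor of lymphatic and of some blood endothelium. VEGFR2 carries most of the signal for endothelial growth, while VEGFR1 binds VEGF-A tightly and can act as a trap for it. Angiopoietin-1 activates TIE2 (Tek) and keeps vessels quiet and tight, whereas angiopoietin-2 comes from the endothelium itself and in many settings opposes angiopoietin-1 at TIE2. In the adult heart, cardiomyocytes are a known source of VEGF-A and VEGF-B.

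All 10 genes had enough counts to be tested among 17155 genes, and 7 of them had an adjusted p under 0.05 for KO against WT (edgeR, quasi-likelihood test). Vegfa, Flt1, Kdr, Flt4 and Angpt2 rose (5 of 10), Angpt1 and Tek fell (2 of 10), and Vegfb, Vegfc and Pgf were not called. Change was common in these hearts, with 25.6% of all genes tested called higher and 25.5% called lower by the same rule. The count of 7 is to be read against a background of 51.1%. The 10 genes and the lists below were chosen with earlier results known, so these counts are descriptions and not tests. By a stricter rule, an adjusted p under 0.005 with a log2 fold change beyond 1, Flt4 was higher and Angpt1 was lower, against 5.36% and 4.87% of all genes in those directions and 10.2% in either. The KO libraries lay wholly above the WT libraries for Vegfa, Flt1 and Flt4 (14.9% of all genes) and wholly below them for Tek (15.2% of all genes, and 30.1% in either direction). The median log2 fold change of the 10 genes was 0.24, and that of all genes tested was 0.00.

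**Figure D1:**
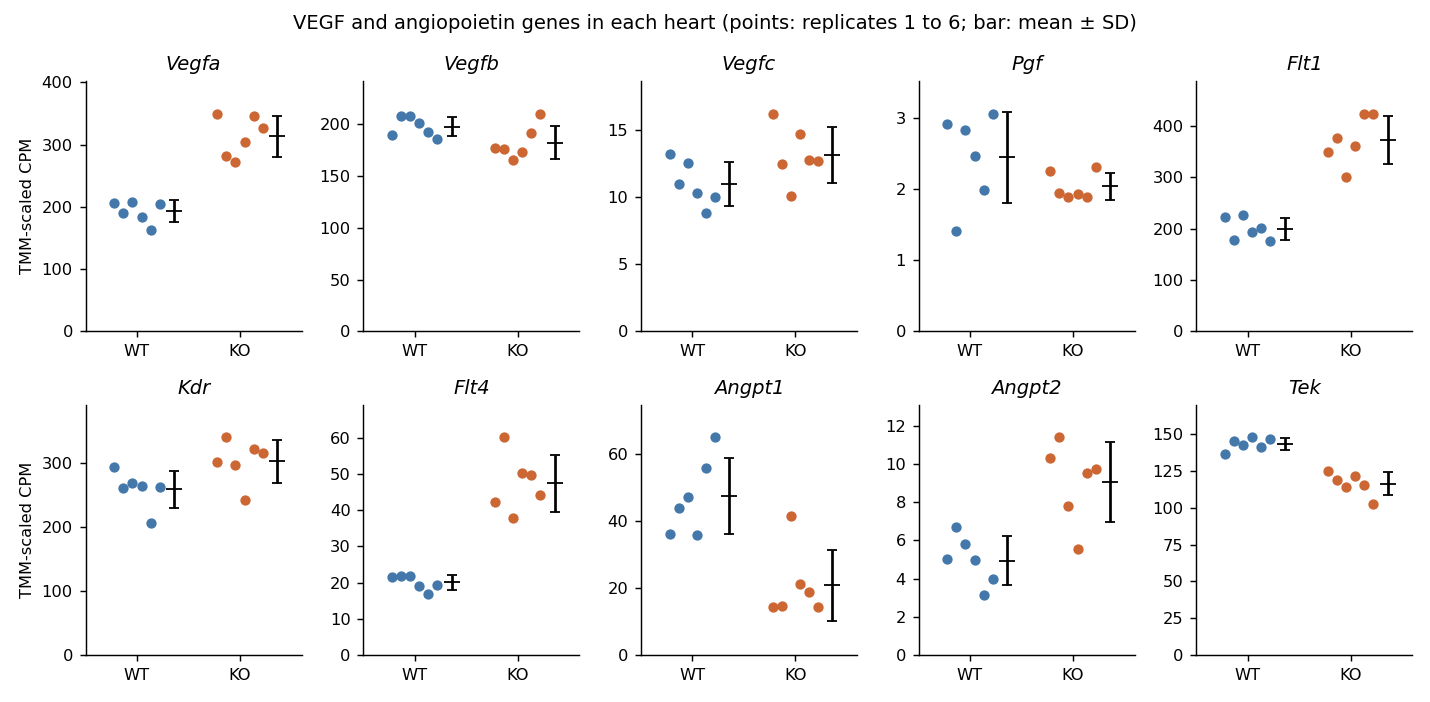
Level of each of the 10 genes in each library, in counts scaled to library size (CPM) by the trimmed mean method (TMM), on linear axes that start at 0. Points are replicates 1 to 6 of WT (blue) and KO (orange), and the bars give mean ± SD. The KO points of Vegfa, Flt1 and Flt4 all lie above the WT points, those of Tek all lie below, and 1 KO library (replicate 3) lies inside the WT range for Angpt1.

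The targeted gene served as a check of the labels. Sdhaf4 was at 25.2 ± 5.80 CPM in WT and 2.40 ± 0.170 CPM in KO (SD, n = 6 each), with a log2 fold change of -3.39 (SE 0.16, edgeR adjusted p = 1.95e-10), and every KO library lay below every WT library. Library totals ran from 23747014 to 27159228 counts in WT and from 26542930 to 31393393 in KO. Any pair of libraries of one group differed beyond sampling noise, the chi-square per degree of freedom lying between 6.99 and 48.6 over the 30 pairs, so none was merged. The library labelled KO replicate 3 was the KO library nearest to WT for 4 of the 7 called genes, namely Vegfa, Flt1, Flt4 and Angpt1. It also had the highest summed level of 10 cardiomyocyte markers among KO libraries (56685 CPM, inside the WT range of 52958 to 57432) and the lowest summed level of 12 pan-endothelial markers (2043 CPM, inside the WT range of 1809 to 2075). Without it, 6 genes of the 10 were called higher, Vegfc added, and 2 lower.

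Before the values, the DNA just upstream of the 4 receptor genes is shown for reference. These genes changed by different amounts and in different directions in these hearts, and a link to the sequences was not tested. The sequences are the 250 bases before the annotated start in RefSeq on GRCm38.p6, read 5′ to 3′ on the strand of the gene, and 8 of the 10 genes had such a window (Angpt1 and Angpt2 did not). Capitals mark the letters ACGTG or GCGTG, the core of the element bound by hypoxia-inducible factors, or their reverse complements CACGT and CACGC. Both strands were searched, and a CACGTG would count once on each strand. The regions are chr5:147726012-147726261 (minus strand) for Flt1, chr5:75978456-75978705 (minus strand) for Kdr, chr11:49609429-49609678 (plus strand) for Flt4 and chr4:94739039-94739288 (plus strand) for Tek.
Flt1: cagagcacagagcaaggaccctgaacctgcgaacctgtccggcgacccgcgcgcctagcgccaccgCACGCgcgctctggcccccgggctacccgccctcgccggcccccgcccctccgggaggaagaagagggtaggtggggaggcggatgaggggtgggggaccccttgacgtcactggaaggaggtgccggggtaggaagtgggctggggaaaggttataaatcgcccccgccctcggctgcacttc
Kdr: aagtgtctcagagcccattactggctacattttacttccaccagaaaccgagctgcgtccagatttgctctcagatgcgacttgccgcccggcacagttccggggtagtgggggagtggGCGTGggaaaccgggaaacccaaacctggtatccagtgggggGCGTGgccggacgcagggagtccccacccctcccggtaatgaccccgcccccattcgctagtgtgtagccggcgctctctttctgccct
Flt4: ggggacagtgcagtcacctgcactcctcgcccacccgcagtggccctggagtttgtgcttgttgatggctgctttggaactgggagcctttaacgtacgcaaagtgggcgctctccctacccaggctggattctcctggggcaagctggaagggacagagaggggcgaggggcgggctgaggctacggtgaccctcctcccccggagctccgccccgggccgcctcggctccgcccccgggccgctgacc
Tek: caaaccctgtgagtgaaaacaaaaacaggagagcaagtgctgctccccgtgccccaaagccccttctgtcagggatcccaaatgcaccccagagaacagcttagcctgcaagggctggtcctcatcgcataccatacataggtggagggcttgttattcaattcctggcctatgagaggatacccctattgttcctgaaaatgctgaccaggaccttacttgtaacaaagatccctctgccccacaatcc
The window of Flt1 held 1 match, that of Kdr held 2, and those of Flt4 and Tek held none. Of the 10 windows of the members, 5 held at least 1 match. For Vegfa the matches lay in the window of its more downstream annotated start (chr17:46025164-46025413), and its other window held none. Over the genome's genes, with 1 chromosome left out, 38.6% of 32851 windows of the same length did. The letters CCGGAA, one sequence bound by ETS factors, were in the window of Kdr alone among the members (12.03% of these windows). Shorter ETS matches were not searched. TGTTTAC, bound by forkhead factors, was in none (3.17% of these windows). A match describes these letters only, and nothing about binding follows from it.

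Among the ligands, Vegfa rose and no other VEGF ligand among the members passed the test. Vegfa (chromosome 17, 49098338 to 49113975, minus strand, on the C57BL/6NJ coordinates of the table) encodes the main growth factor for blood vessels. Its level in WT was 163.1 CPM at the lowest, 198.1 at the median and 207.5 at the highest, and in KO it was 271.3, 315.0 and 349.8. The groups did not overlap. The means were 192.7 ± 17.5 in WT and 313.1 ± 32.7 in KO (SD, n = 6 each), a 1.62-fold rise (log2 fold change 0.70, SE 0.07, edgeR adjusted p = 7.13e-07). In bulk tissue a change in the number of cells of a type and a change in RNA per cell cannot be told apart, here and for every gene below.

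Vegfb (chromosome 19, 4171383 to 4176492, minus strand) encodes a VEGFR1 ligand linked to lipid handling and survival in heart muscle. It ran from 186.1 to 208.4 CPM in WT (median 197.2) and from 165.2 to 210.3 in KO (median 176.7). The KO median was the lower one, but the ranges overlapped. The log2 fold change was -0.12 with a 95% interval of -0.24 to 0.0050 (edgeR adjusted p = 0.102). Without KO replicate 6, the highest KO library, it was -0.17 (edgeR adjusted p = 0.0120).

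Vegfc (chromosome 8, 55729290 to 55841166, plus strand), the growth factor of lymphatic vessels, ran from 8.78 to 13.2 CPM in WT (median 10.6) and from 10.1 to 16.2 in KO (median 12.7). These ranges overlapped as well, and the log2 fold change was 0.26 with a 95% interval of 0.01 to 0.51 (edgeR adjusted p = 0.0758). It passed the test without WT replicate 1 (0.31, edgeR adjusted p = 0.0417) and without KO replicate 3 (0.32, edgeR adjusted p = 0.0211). Pgf (chromosome 12, 88406881 to 88416442, minus strand) encodes placental growth factor and rested on only 39 to 80 counts a library. The WT libraries held 1.41 to 3.06 CPM (median 2.65), and the KO libraries lay inside that range at 1.89 to 2.31 (median 1.94). Its log2 fold change was -0.26, and the 95% interval of -0.67 to 0.14 left a change of either sign within the error (edgeR adjusted p = 0.270).

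The VEGF receptor genes all rose, by unequal amounts. Flt4 rose most, Flt1 came next, and Kdr moved little. Flt1 (chromosome 5, 158843447 to 159036006, minus strand) was at 174.9 CPM in the lowest, 197.7 at the median and 225.6 in the highest WT library, and at 301.2, 368.3 and 423.7 in KO. The groups did not overlap. The means were 199.3 ± 21.2 and 372.0 ± 46.8 (SD, n = 6 each), a 1.87-fold rise (log2 fold change 0.90, SE 0.09, edgeR adjusted p = 2.69e-07). The counts are per gene, so the soluble and the membrane-bound forms that Flt1 is known to encode were not separated.

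Kdr (chromosome 5, 79160881 to 79210489, minus strand), the gene of the main signaling receptor, ran from 206.4 to 294.1 CPM in WT (median 263.3) and from 242.1 to 340.7 in KO (median 309.3). The ranges overlapped over most of their width. The means of 259.6 ± 28.8 and 303.5 ± 33.8 (SD, n = 6 each) gave a log2 fold change of 0.23 with a 95% interval of 0.05 to 0.40 (edgeR adjusted p = 0.0340). This call was lost when any one of WT replicates 2, 4, 5 and 6 or KO replicates 1, 2, 5 and 6 was left out, with log2 fold changes of 0.23, 0.22, 0.16, 0.23, 0.23, 0.19, 0.21 and 0.21 in that order. The edgeR adjusted p over the 12 fits that left out a library ran from 0.0041 to 0.0822.

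Flt4 (chromosome 11, 50167137 to 50242774, plus strand) was at 16.9, 20.3 and 21.9 CPM as the lowest, median and highest WT value and at 37.8, 46.9 and 60.1 in KO. The groups stood well apart. The means were 20.1 ± 1.99 and 47.4 ± 7.80 (SD, n = 6 each), a 2.36-fold rise (log2 fold change 1.24, SE 0.10, edgeR adjusted p = 4.90e-08). Markers of lymphatic endothelium moved in the same hearts. Of 6 listed, 5 had a row and were tested. Of these, 4 rose and 1 fell (25.6% and 25.5% of all genes higher and lower), with a median log2 fold change of 0.90. The summed level was 118.1 to 156.6 CPM in WT and 140.1 to 221.3 in KO, so those ranges overlapped. The largest single share of the sum was Prox1, which heart muscle also expresses, at 95.8 CPM in WT and 69.3 in KO, and which fell by 0.47 on the log2 scale. Reln (2.27), Mmrn1 (1.597), Pdpn (0.90) and Lyve1 (0.87) rose, each with every KO library above every WT library. Which cells carried the 4 markers that rose was not tested. The part of lymphatic cells in the Flt4 result was not tested either.

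On the angiopoietin side, the ligand that activates TIE2 fell, the other ligand rose, and the receptor gene fell. Angpt1 (chromosome 15, 42583589 to 42852603, minus strand) was at 35.97 CPM in the lowest, 45.6 at the median and 65.0 in the highest WT library, and at 14.3, 16.6 and 41.5 in KO. Of the KO libraries, 5 lay between 14.3 and 21.1 CPM, below all WT libraries, and only KO replicate 3 reached into the WT range. The means were 47.4 ± 11.4 and 20.8 ± 10.53 (SD, n = 6 each), a log2 fold change of -1.19 (SE 0.28, edgeR adjusted p = 0.00444), or 2.28-fold lower. Without KO replicate 3 the log2 fold change was -1.52 (edgeR adjusted p = 2.36e-05). An unnamed gene on the opposite strand overlaps Angpt1, and with the strand setting of the counting not stated the reads of such a pair cannot be told apart. That gene held 614 counts over all libraries, 5.62% of the counts of Angpt1, and fell by 2.54 on the log2 scale (edgeR adjusted p = 7.97e-06).

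Angpt2 (chromosome 8, 16693101 to 16746092, minus strand) was much less abundant. It was at 3.12, 5.0 and 6.72 CPM as the lowest, median and highest WT value and at 5.53, 9.62 and 11.4 in KO. The groups overlapped through KO replicate 4 at the low end. The means were 4.94 ± 1.28 and 9.05 ± 2.08 (SD, n = 6 each), a 1.83-fold rise (log2 fold change 0.87, SE 0.19, edgeR adjusted p = 0.000992). The gene lies opposite Mcph1, whose 2093 counts were 89.3% of those of Angpt2. Mcph1 fell by 0.95 on the log2 scale (edgeR adjusted p = 8.75e-06), the direction opposite to that of Angpt2.

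Tek (chromosome 4, 98419832 to 98577085, plus strand) had the tightest values of the 10 genes, with a coefficient of variation of 2.88% in WT and 6.74% in KO. It was at 136.8, 144.2 and 148.0 CPM as the lowest, median and highest WT value and at 102.6, 117.5 and 124.9 in KO. Every KO library lay below every WT library. The means were 143.6 ± 4.14 and 116.4 ± 7.84 (SD, n = 6 each), a 1.23-fold fall (log2 fold change -0.30, SE 0.05, edgeR adjusted p = 7.28e-05). The fall was small in size and larger than the spread between libraries.

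**Figure D2:**
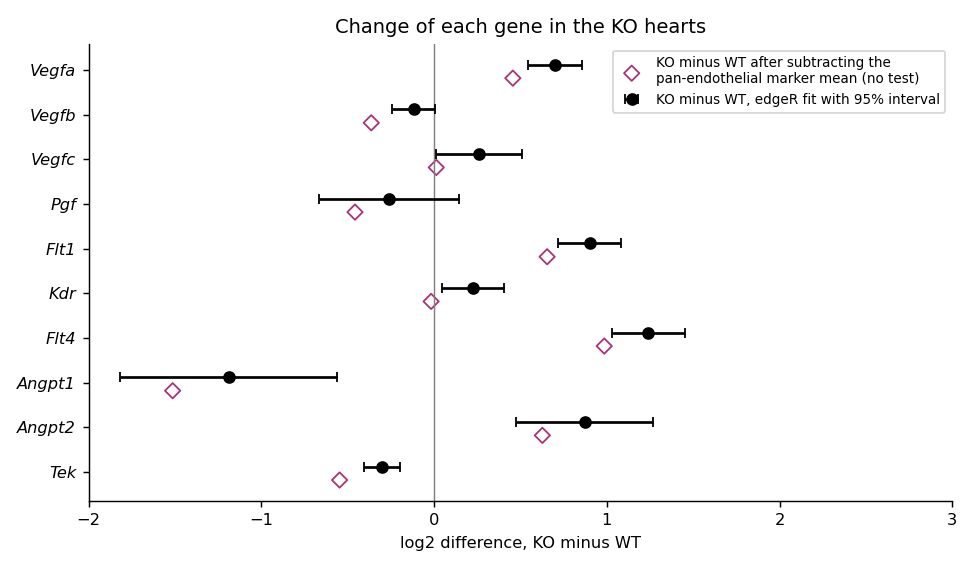
Log2 difference of KO minus WT for each gene. Filled points give the edgeR estimate with its 95% interval, and open diamonds give the same difference after the mean of 12 pan-endothelial markers was subtracted in each library, with no test. Flt4 at 1.24 and Angpt1 at -1.19 mark the ends, and the diamond of Kdr sits at -0.02.

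Because the receptors are endothelial genes, the general endothelial markers are given beside them. Of 12 pan-endothelial markers (Pecam1, Cdh5, Emcn, Esam, Egfl7, Eng, Erg, Robo4, Tie1, Ptprb, Cldn5 and Sox18), 7 rose, 1 fell and 4 were not called (25.6% and 25.5% of all genes higher and lower). Their median log2 fold change was 0.32, and none was at 0 in any library. Pecam1, the adhesion protein of endothelial junctions, was higher by 0.29 (edgeR adjusted p = 0.000749), and Cdh5, or VE-cadherin, gave 0.07 (edgeR adjusted p = 0.316). Cldn5, a tight junction gene, fell by 0.78 (edgeR adjusted p = 0.000580). The summed level was 1809 to 2075 CPM in WT and 2043 to 2691 in KO.

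The mean log2 CPM of these markers was 6.96 ± 0.06 in WT and 7.21 ± 0.10 in KO (SD, n = 6 each). The groups were only just apart, with 7.030 as the highest WT value and 7.034 as the lowest KO value. The summed levels above overlapped. Each gene's log2 CPM was then set against that mean within its own library, as a description with no test. The marker mean was itself higher in KO by 0.24, so a gene with an unchanged level stands lower on this scale. The share of all genes without overlap was not computed here. Vegfa, Vegfb and Angpt1 have known sources outside the endothelium, so for them this scale is no adjustment for cell content. Relative to the marker mean, Flt4 was higher in KO by 0.99, Flt1 by 0.65 and Vegfa by 0.46, with no overlap of the groups for any of the 3. The difference relative to the markers was -0.55 for Tek and -0.36 for Vegfb, again with no overlap, although Vegfb was not called on its own level. The markers' own log2 fold changes ran from -0.78 to 0.86, so these values depend on the markers chosen. Kdr differed by -0.02 and Vegfc by 0.01, with overlapping groups. Angpt2 (0.63), Angpt1 (-1.51) and Pgf (-0.46) overlapped between the groups on this scale.

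The balance between the genes was also read within each library, as differences of log2 CPM with no test. The share of all gene pairs without overlap was not computed. A difference of CPM values between genes carries their lengths, which cancel when the groups are compared. Angpt2 minus Angpt1 was -3.25 ± 0.64 in WT (-4.13 to -2.70) and -1.11 ± 0.85 in KO (-2.40 to -0.35; SD, n = 6 each), without overlap. Flt1 minus Kdr went from -0.38 ± 0.21 to 0.29 ± 0.20 and Flt4 minus Kdr from -3.69 ± 0.10 to -2.68 ± 0.26, so in every KO library both genes stood higher against Kdr than in any WT library. Vegfa minus Kdr was -0.43 ± 0.08 in WT and 0.05 ± 0.22 in KO, without overlap. Vegfa minus Flt1 was -0.05 ± 0.19 and -0.25 ± 0.16, and here the groups overlapped.

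**Figure D3:**
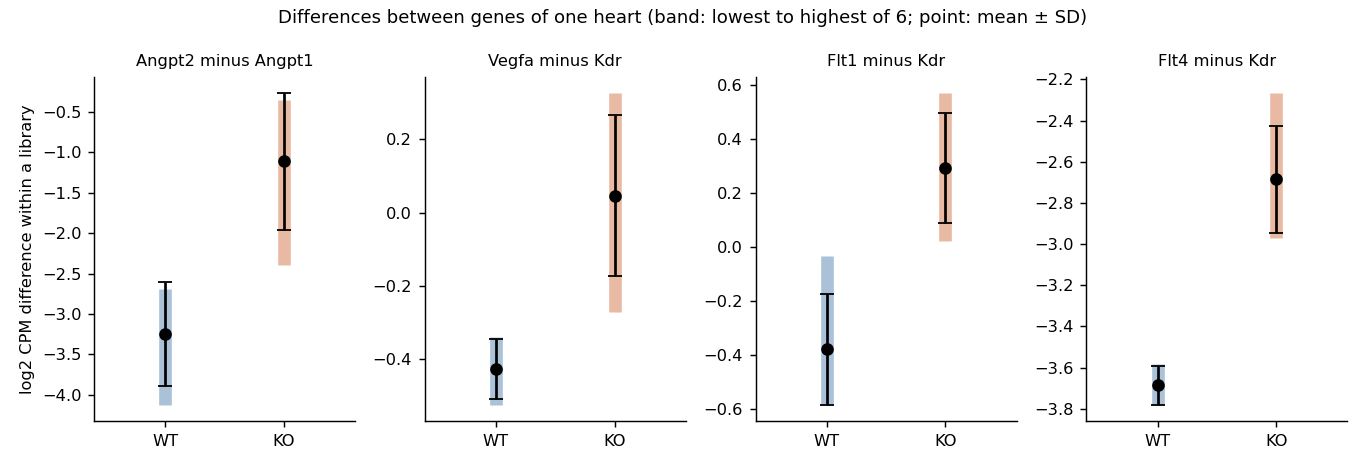
Differences in log2 CPM between pairs of genes within a library, for WT (blue) and KO (orange). Bands run from the lowest to the highest of the 6 libraries, and points with bars give mean ± SD. In all 4 panels the KO band lies above the WT band, with Angpt2 minus Angpt1 moving from a mean of -3.25 to -1.11.

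Levels were compared between genes per length, using the FPKM values as deposited. In WT, Vegfb was highest at 204.5 ± 10.04 FPKM, followed by Vegfa at 126.1 ± 12.7, Flt1 at 66.4 ± 6.24, Kdr at 59.3 ± 6.97, Tek at 41.7 ± 1.70, Angpt1 at 15.7 ± 3.94, Vegfc at 5.82 ± 0.873, Pgf at 4.99 ± 1.32, Flt4 at 4.06 ± 0.429 and Angpt2 at 2.35 ± 0.623 (SD, n = 6). The WT ranges of Flt1 and Kdr, of Vegfc and Pgf, and of Pgf and Flt4 overlapped, so their order is open. In KO, Vegfa at 205.1 ± 23.98 FPKM came level with Vegfb at 188.6 ± 16.3, and their ranges overlapped. Flt1 at 124.3 ± 16.3 stood apart from Kdr at 69.3 ± 7.44 and Tek at 33.9 ± 2.97. Flt4 at 9.61 ± 1.71 FPKM came sixth, above Vegfc at 6.99 ± 1.25 and Angpt1 at 6.84 ± 3.29, with overlapping neighbours down to Angpt2 at 4.29 ± 0.993 and Pgf at 4.16 ± 0.387. The FPKM of a gene rests on a length that differs from the table's own length for 8 of the 10 genes. With the table's length, Kdr (43.8) stood above Tek (30.8) and Flt1 (28.8) in WT. In KO, Vegfb (142.3) then stood above Vegfa (84.7) and Flt1 (54.0) was close to Kdr (51.2), so both of these KO orders depend on the length used.

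**Figure D4:**
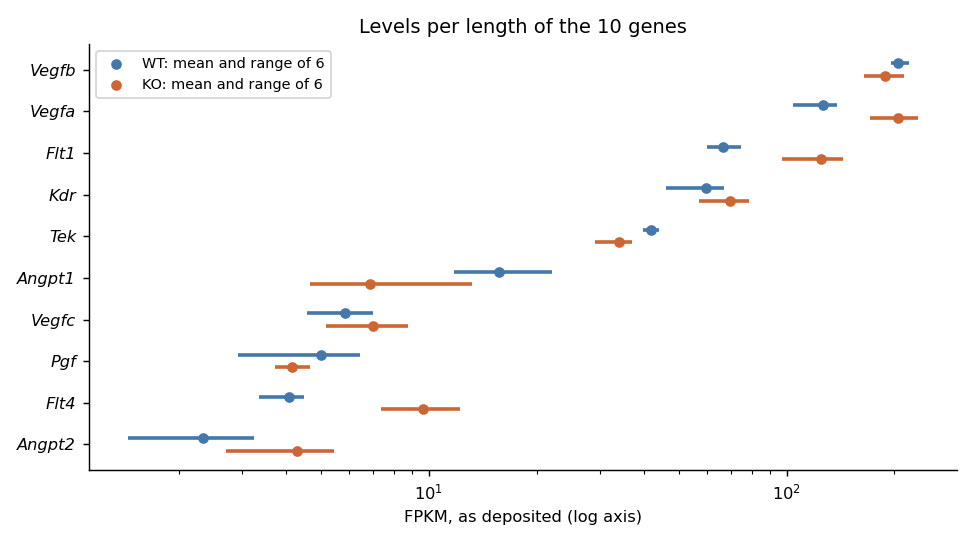
Level per length of the 10 genes in FPKM, as deposited, on a log axis. Points are means of 6 libraries and lines run from the lowest to the highest library, with WT in blue and KO in orange. Vegfb and Vegfa lead in both groups, and the lines of Flt4 do not touch each other.

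Among the other ligands, co-receptors and partners of the family, 4 of 6 genes tested rose, none fell and 2 were not called (25.6% of all genes higher, 51.1% called), with a median log2 fold change of 0.46. Ptprb, the endothelial phosphatase VE-PTP that dampens TIE2 and VEGFR2, went from 325.6 ± 16.4 to 591.1 ± 79.1 CPM (log2 fold change 0.86, SE 0.08, edgeR adjusted p = 1.50e-07). Nrp1, the co-receptor neuropilin-1, went from 213.4 ± 7.92 to 266.4 ± 13.1 CPM (0.32, SE 0.05, edgeR adjusted p = 2.21e-05), and both genes had no overlap of the groups. Vegfd, a further ligand of VEGFR3, was at 1.80 to 3.07 CPM in WT and 2.58 to 4.198 in KO (0.60, SE 0.18, edgeR adjusted p = 0.00931). Angpt4, a further angiopoietin, passed the test on few counts, at 0 to 0.526 CPM in WT and 0.0331 to 1.37 in KO (edgeR adjusted p = 0.0470). The co-receptor gene Nrp2 (-0.01) and the TIE2 partner Tie1 (0.10) were not called. Ptprb and Tie1 are also among the pan-endothelial markers above.

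Of 24 genes that act downstream of the VEGF receptors, 14 rose, none fell and 10 were not called, where 25.6% of all genes were called higher and 51.1% in either direction. Their median log2 fold change was 0.15, beside 0.00 for all genes tested. The 3 with the smallest p were Sphk1, which makes sphingosine-1-phosphate, Prkca, a protein kinase C, and Shb, an adaptor of VEGFR2. Sphk1 ran from 0.866 to 2.33 CPM in WT and from 7.05 to 13.0 in KO, a 6.51-fold rise (log2 fold change 2.70, SE 0.20, edgeR adjusted p = 1.76e-08). Prkca rose by a log2 fold change of 0.82 (edgeR adjusted p = 5.04e-08) and Shb by 0.92 (edgeR adjusted p = 1.68e-07), both without overlap. Nos3, the endothelial nitric oxide synthase, gave 0.13 (edgeR adjusted p = 0.301), and the kinase gene Mapk3 was not called either.

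The genes known to respond to VEGF or to mark sprouting tip cells split in direction. Of 10 tested, leaving out Angpt2, 6 rose, 3 fell and 1 was not called (25.6% and 25.5% of all genes higher and lower). Unc5b, a guidance receptor, rose from 30.9 ± 4.55 to 54.3 ± 7.25 CPM (log2 fold change 0.81, SE 0.10, edgeR adjusted p = 7.46e-06). Pdgfb, which recruits pericytes, rose by 0.47 (SE 0.07, edgeR adjusted p = 2.97e-05), and Rcan1, the feedback inhibitor of calcineurin, by 0.53 (SE 0.09, edgeR adjusted p = 8.67e-05). The genes that fell were the peptide Apln (by 1.07 on the log2 scale), its receptor Aplnr (by 1.03) and the early response factor Nr4a1 (by 0.93), each with overlapping groups. They are named because they were the members of the list that went the other way.

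Notch pathway genes of the endothelium, which act with VEGF in vessel sprouting, rose in 6 of 9 cases and fell in none (25.6% of all genes higher, 51.1% called), with a median log2 fold change of 0.42. Notch4 went from 61.9 ± 7.98 to 111.1 ± 14.9 CPM (0.84, SE 0.10, edgeR adjusted p = 3.16e-06). The ligand genes Jag1 (0.52, SE 0.08, edgeR adjusted p = 7.40e-05) and Dll4 (0.53, SE 0.12, edgeR adjusted p = 0.00141) also lay wholly above WT. Dll4 is also counted in the VEGF-responsive list above. Of 8 tested genes downstream of TIE2, 1 was higher, 4 were lower and 3 were not called (25.6% and 25.5% of all genes higher and lower), with a median of -0.07. Grb14, an adaptor that also binds the insulin receptor, fell from 141.1 ± 4.01 to 77.6 ± 2.12 CPM (log2 fold change -0.86, SE 0.04, edgeR adjusted p = 6.70e-11), without overlap. Klf2, a factor of quiescent endothelium, went from 112.7 ± 22.6 to 54.2 ± 13.7 CPM (-1.06, SE 0.18, edgeR adjusted p = 0.000379). Dok2, a docking protein, went from 2.55 ± 0.580 to 1.07 ± 0.497 CPM (-1.25, SE 0.27, edgeR adjusted p = 0.000840). Both had overlapping groups. Dok2 overlaps Xpo7 on the opposite strand, whose 19857 counts were many more than those of Dok2. The reads of this pair cannot be told apart either, so the Dok2 value carries that limit. Foxo1, a factor that TIE2 signaling restrains, fell by 0.17 (edgeR adjusted p = 0.0239), and Akt1 was the member that rose (0.27, edgeR adjusted p = 0.00390). Akt1 and Pik3r1, which was not called, are also counted among the genes downstream of the VEGF receptors.

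**Figure D5:**
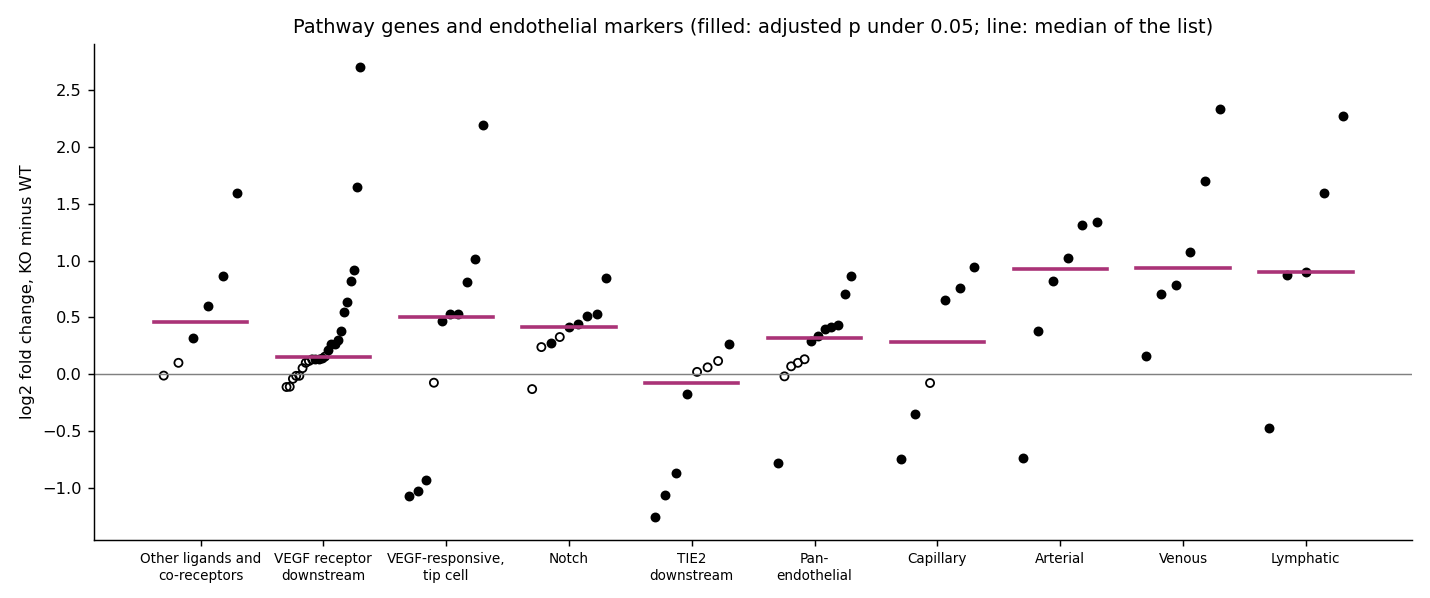
Log2 fold change (KO minus WT) of each gene in the pathway and endothelial marker lists. Filled points passed an adjusted p under 0.05 in edgeR, open points did not, and lines mark each list's median. The medians of the arterial (0.92), venous (0.93) and lymphatic (0.90) lists lie highest, and that of the TIE2 list (-0.07) lies lowest.

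Markers of vessel types moved unequally in the same libraries. Each count below is to be read against 25.6% of all genes called higher and 25.5% called lower. Of 6 arterial markers, 5 rose and 1 fell, with summed levels of 149.5 to 173.0 CPM in WT and 266.5 to 326.6 in KO. All 6 venous markers rose, with summed levels of 209.4 to 270.1 CPM in WT and 389.6 to 462.9 in KO. Of 6 capillary markers, 3 rose, 2 fell and 1 was not called, and their summed level overlapped (5481 to 6160 CPM in WT, 5312 to 6145 in KO), most of it from Cd36 and Fabp4, which other cells of the heart also express. Of 10 pericyte and smooth muscle markers, cells known to make angiopoietin-1, 3 rose, 3 fell and 4 were not called, with summed levels of 1845 to 2092 and 1644 to 2272 CPM. Of 8 fibroblast markers, 7 rose and 1 fell (1489 to 1802 CPM in WT, 2297 to 4479 in KO). Of 10 cardiomyocyte markers, 2 rose, 5 fell and 3 were not called (52958 to 57432 and 44984 to 56685 CPM), so the labelled tissue carried its defining markers at high level in both groups. Of 7 macrophage markers, 1 rose, 2 fell and 4 were not called (206.6 to 293.9 and 209.7 to 356.9 CPM), and neither of 2 erythroid markers was called. No marker tested for these cell types was at 0 in any library, and the part of any cell type in the changes of the 10 genes was not tested.

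The genes with the most similar profiles were found among 12047 annotated genes with a mean of at least 1 CPM, by the root mean square difference of log2 CPM after each gene was centred over the 12 libraries. For Vegfa these were Smpd1 (0.0832), Smap1 (0.0852) and Ppfia1 (0.0875). For Tek they were Blmh (0.0313), Smarca5 (0.0495) and Mesdc2 (0.0531). For Kdr they were Cox10 (0.102), Papd7 (0.103) and Sfmbt1 (0.104). All of these genes share the 12 libraries and the difference between genotypes with the gene they resemble, and the measure describes these libraries only.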

How the data were processed

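The authors purified mRNA on poly-T beads, mapped the reads (HISAT2 2.0.5 and mm10 per the submitters' processing notes) and counted reads per gene with HTSeq. They deposited raw counts and FPKM values (counts per length and library size) for each library in 1 table, whose identifiers and coordinates belong to the C57BL/6NJ strain assembly. The strand setting and aligner options are not given in the sources used here. The deposited fold changes and p-values of the authors' own comparison were not used.

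Libraries were grouped by genotype from the labels. The counts went into edgeR 4.0.16 (R 4.3.3), with filterByExpr, TMM, robust quasi-likelihood fits without covariates and Benjamini-Hochberg adjustment over the 17155 genes kept. Standard errors and intervals came from the fold change and its F statistic. CPM values are TMM-scaled, summed marker levels use library totals, and log2 CPM used a prior count of 2. FPKM served to compare levels between genes. The code was tested on simulated counts with 100 changed genes among 17155. It recovered 83 of them at a log2 change of 1 and 48 at 0.5, with 5 false calls each time. In the real comparison 51.1% of genes were called, and the adjusted p depends on that share. The simulated rates therefore check the code and are not recovery rates for this comparison. Small changes can still go uncalled. The members and all gene lists were chosen with earlier results of these data known. The genes named are the members, the 3 with the smallest p in each pathway list, leading markers, the closest profiles and Sdhaf4, with others chosen after their values were seen (Pecam1, Cdh5, Cldn5, lymphatic markers, Nrp2, Tie1, Angpt4, Nos3, Mapk3, Apln, Aplnr, Nr4a1, Foxo1, Akt1). Of the listed genes, Figf (the older name of Vegfd), Ccl21a, Lyz2, Hba-a2, Hbb-bs and Hbb-bt had no row, and Kcne3 and Grb7 had too few counts to test.

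Alternatives were other normalizations, DESeq2 1.42.0, limma 3.58.1 (voom, and on log2 of FPKM plus 1 or 0.1), other filters, no robust step, leaving out unannotated loci, a replicate block and each library left out in turn. Totals of 23747014 to 31393393 counts per library set the precision, and values under 1 CPM rest on few reads.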

Additional observations from a re-analysis of the deposited data

Results flagged for a closer look

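In 4 of the 52 groups of values examined, 1 library stood apart from the other 5 of its group by more than Dixon's 95% limit, where chance alone gives about 2.6. Angpt1 in KO was at 41.5 CPM in replicate 3 and at 14.3 to 21.1 in the others. Pdgfb in WT was at 64.7 CPM in replicate 1 and at 52.2 to 56.8 in the others. Klf2 in KO was at 80.0 CPM in replicate 4 and at 39.8 to 54.8 in the others. Sdhaf4 in KO was at 2.73 CPM in replicate 1 and at 2.25 to 2.41 in the others.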

How the results depend on the processing

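Under other normalizations, tests, filters and units, Vegfa, Flt1, Flt4, Angpt1, Angpt2 and Tek kept their direction and their call, and no gene's direction was reversed. Kdr kept its direction and lost its call under the replicate block (0.23, edgeR adjusted p = 0.0539). Leaving out each library in turn gave log2 fold changes of 0.16 to 0.28 for Kdr, which lost its call in 8 of 12 such fits, of 0.19 to 0.32 for Vegfc, which gained one without WT replicate 1 or KO replicate 3, and of -0.17 to -0.10 for Vegfb, which gained one without KO replicate 6. On log2(FPKM + 1) with limma, 440 genes were higher and 415 lower by the stricter rule, against 919 and 836 with edgeR. The pseudocount shrinks the changes of low genes by construction. Replicate numbers did not pair the libraries, since same-numbered libraries deviated together with correlations of -0.16 to 0.02 and 1 of 6 was closest to its own number. The block gave 4123 genes higher and 4110 lower, and changed no other call among the members. Depth limits Pgf, Angpt4 and Dok2, which rest on few counts. Dok2 is limited further by the overlap with Xpo7.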
